A study of Mus musculus with 84 samples.

Results

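The mouse genes for the receptor subunits of glutamate, the main excitatory transmitter, and GABA, the main inhibitory one, were followed in hippocampus and hypothalamus of obese ob/ob and wild-type mice. A gene was a member when its symbol began with the name of an AMPA, kainate or NMDA subunit (Gria, Grik, Grin), or was a delta glutamate receptor subunit (Grid), a metabotropic glutamate receptor (Grm), a GABA-A subunit (Gabr) or a GABA-B subunit (Gabbr). Of the 49671 genes in the count table, 48 met the rule. They were 47 protein-coding genes and Grin1os, a noncoding gene on the opposite strand of Grin1 that the symbol rule also took. The rule used symbols and no measured value.

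Mice homozygous for the ob mutation, a nonsense change in the leptin gene Lep, make no working leptin and become obese. In the study 12 mice were kept for 20 weeks, 3 in each of 4 groups: wild type (WT) on normal diet (ND), WT on high-fat diet (HFD), ob/ob on ND and ob/ob on HFD. RNA of 7 tissues per mouse was sequenced, and the 24 libraries used here are the 12 of hippocampus and the 12 of hypothalamus. The labels give no strain, sex or food composition, and the mice are told apart only by a replicate number, so p-values measure the spread between these numbered mice, called below by group and number (WT ND mouse 1). The libraries are bulk tissue, in which fewer cells of a type and less RNA per cell cannot be told apart.

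AMPA, kainate and NMDA receptors are ion channels built of several subunits that pass excitatory current when glutamate binds, and the metabotropic (mGlu) receptors act through G proteins. GABA-A receptors are chloride channels, mostly of alpha and beta with a gamma or delta subunit, and GABA-B receptors are G-protein coupled pairs of Gabbr1 and Gabbr2. Which subunits a neuron makes sets the kinetics, the site and the pharmacology of its receptors, and hypothalamic neurons that respond to leptin receive both glutamate and GABA input.

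The brain libraries held 12098380 to 15535110 counts, and the members took 0.527% to 0.678% of them. Levels are given as CPM (a gene's share of the library's counts, scaled to 1e+06) on library sizes scaled by TMM over the 24 libraries, and as FPKM (CPM per kilobase of annotated exon) where genes are compared with each other. The 12 hypothalamic libraries held the neuropeptide transcripts Pmch at 122.2 to 568.9 CPM and Hcrt at 29.6 to 153.1 CPM, with at most 12.6 and 0.640 CPM in hippocampus. WT ND mouse 1 had the lowest hypothalamic values of both. Neurod6, a transcript of pyramidal neurons, lay at 105.9 to 192.2 CPM in hippocampus and at most 2.95 CPM in hypothalamus. The hippocampal libraries were uneven in markers of neighbouring tissue: Prkcd, a thalamic marker, ran from 7.73 to 571.5 CPM, and the choroid plexus transcript Ttr from 23.8 to 7920 CPM. Hypothalamic libraries held Prkcd as well, at 146.9 to 437.9 CPM.

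Most members were expressed in both regions. A median of at least 1 FPKM was reached by 39 members in hippocampus and 41 in hypothalamus. Grm6, which is known from retinal bipolar cells, had no count in any of the 24 libraries, and Gabra6, known from cerebellar granule cells, reached at most 0.243 CPM. These 2 genes, Gabrp, Gabrr1, Gabrr3 and Grin3b had too few counts to be tested, and Gabre was also left out of the fit on hippocampus alone. That left 41 members tested in hippocampus and 42 in hypothalamus and in the fit over both regions.

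The AMPA subunits carry most fast excitatory transmission. Gria1 had the highest mean FPKM of the members in hippocampus, an order that did not differ from Gabbr1 beyond their spread, at 118.6 ± 16.9 FPKM (SD, n = 12), and stood at 69.7 ± 6.26 FPKM in hypothalamus (n = 12). It made up 64.6% ± 2.30 of the summed FPKM of the 4 AMPA genes in hippocampus and 60.6% ± 1.61 in hypothalamus (SD, n = 12 each). Gria2, whose edited subunit keeps the channel from passing calcium, made up 17.5% ± 1.47 and 14.8% ± 1.19. Gria4, which is known from interneurons, made up 8.47% ± 2.02 in hippocampus and 17.9% ± 1.07 in hypothalamus. FPKM divides by the whole annotated exon length, which is 15548 bases for Gria2 and 6043 for Gria1, so a gene with long unused exons is given too low a level.

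NMDA receptors pair the obligatory Grin1 with subunits of the Grin2 group, which set the channel's decay and its block by magnesium. Grin1 was at 26.5 ± 3.68 FPKM in hippocampus and 19.2 ± 1.86 in hypothalamus (SD, n = 12). Grin2b gave 44.9% ± 4.18 of the Grin2 FPKM in hippocampus and 33.4% ± 4.57 in hypothalamus. Grin2a gave 27.8% ± 2.24 in hippocampus and 10.3% ± 1.46 in hypothalamus. Grin2d, known for slow channels of interneurons and deep brain regions, gave 5.69% ± 1.70 and 23.6% ± 2.998. The ranges of the Grin2a shares, 23.99% to 31.3% and 7.92% to 12.5%, did not overlap between the regions.

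Among GABA-A genes the alpha subunits decide which drugs and which synapses a receptor serves. Gabra5, known for receptors outside synapses on pyramidal cells, was at 54.9 ± 11.1 FPKM in hippocampus, and Gabra3 at 53.5 ± 4.35 FPKM in hypothalamus. Gabrd, whose subunit replaces gamma in tonic receptors, gave 97.1% ± 1.24 of the summed FPKM of Gabrd, Gabre and Gabrq in hippocampus, and 43.5% ± 11.9 in hypothalamus, where Gabrq gave 44.9% ± 10.01. Gabbr1 had the highest FPKM of all members in hypothalamus, 123.9 ± 8.42, and was at 104.4 ± 11.5 in hippocampus (SD, n = 12 throughout).

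Of the other families, Grik5 led the kainate genes with 35.4 ± 6.37 FPKM in hippocampus and 20.6 ± 1.26 in hypothalamus. Grid1 was at 12.6 ± 1.32 and 14.2 ± 1.37 FPKM. Among mGlu genes Grm5 was at 20.1 ± 4.33 FPKM in hippocampus. Grm3 led group II in both regions, at 17.3 ± 4.50 and 10.6 ± 1.97 FPKM. Group III was led by Grm7 in hippocampus (7.62 ± 1.02 FPKM) and Grm4 in hypothalamus (10.2 ± 1.33 FPKM), where Grm7 at 8.87 ± 0.999 FPKM lay within the spread. Gabrr2, the rho gene tested, stood at 1.53 ± 0.844 and 1.44 ± 0.501 FPKM (SD, n = 12 throughout).

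**Figure D1:**
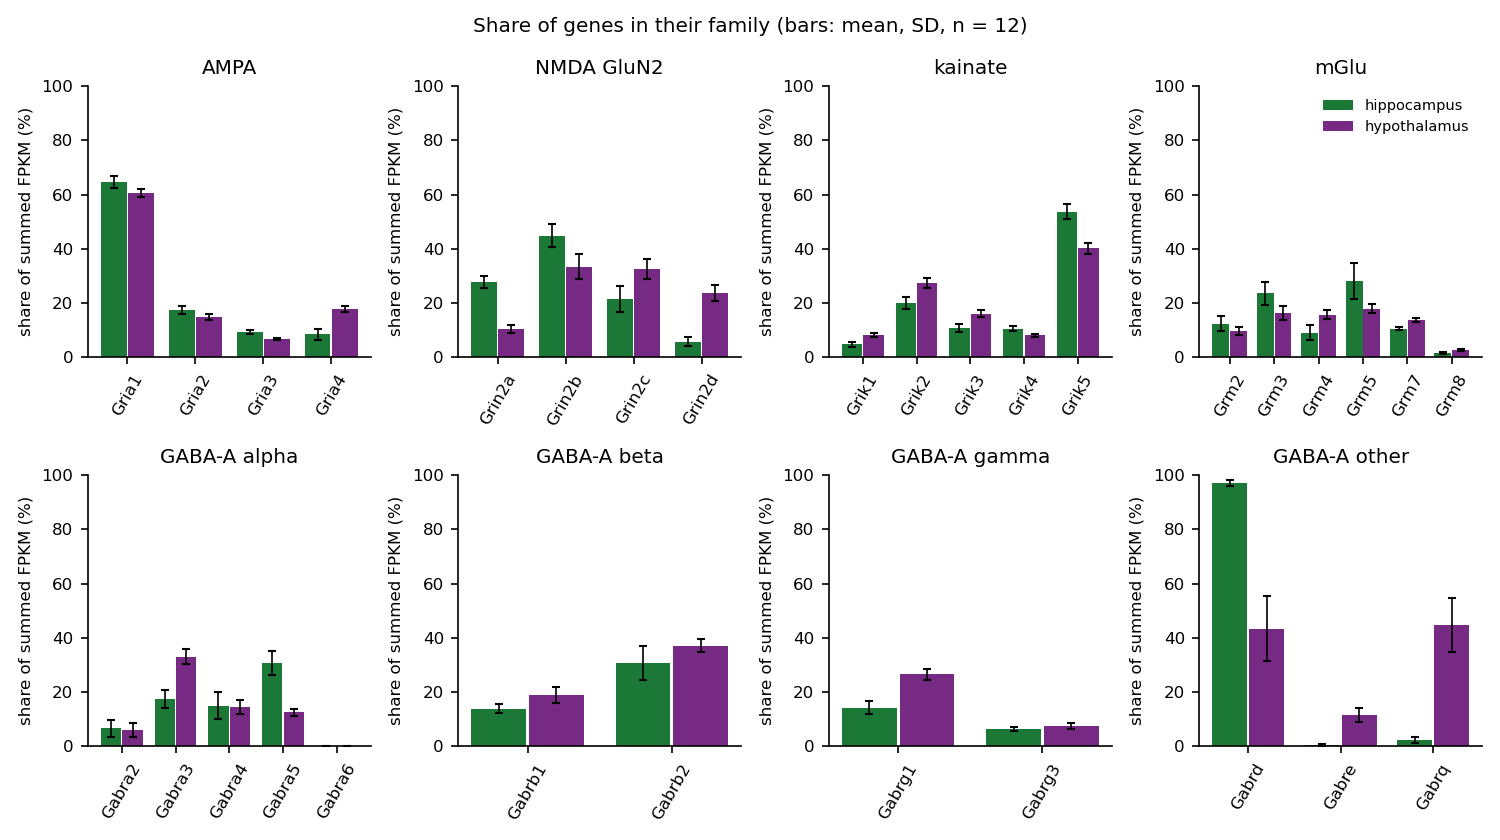
Share of genes in the summed FPKM of their family (percent, y axis) in hippocampus (green) and hypothalamus (purple); bars are means over 12 libraries and error bars the SD, and not every gene of a family is drawn. Grin2a falls from 27.8% to 10.3% between the regions, Grin2d rises from 5.69% to 23.6%, and Gabrq is 2.28% in hippocampus and 44.9% in hypothalamus.

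Most members differed between the regions. Hippocampus and hypothalamus were compared within mice (edgeR quasi-likelihood test with mouse as a block and Benjamini-Hochberg adjustment over 17163 genes, threshold 0.05). Libraries of the same group and number were taken as the same mouse, a pairing that rests on the labels and left no sign in the counts. Of the 42 members tested, 34 passed, 16 higher and 18 lower in hippocampus, beside 56.6% of all tested genes called, 30% higher and 26.7% lower. The median log2 difference of the members was -0.03, and that of all genes 0.01. Of 4 AMPA genes 3 were higher in hippocampus and 1 lower, of 5 kainate genes 2 were higher and 2 lower, of 6 NMDA genes tested 4 were higher and 2 lower, both group II mGlu genes were higher, and the 3 tested group III mGlu genes were lower. Gabrg1, Gabrg3, Gabre and Gabrq were lower in hippocampus.

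Gabre and Gabrq, which encode the epsilon and theta subunits, marked the hypothalamus. Gabre ranged from 0.219 to 0.853 CPM in the 12 hippocampal libraries (median 0.388) and from 11.1 to 24.1 CPM in the 12 hypothalamic ones (median 14.9). Gabrq ranged from 0.710 to 3.27 CPM (median 1.99) and from 44.99 to 104.4 CPM (median 69.98). Neither gene overlapped between the regions in any library. The fitted log2 differences were -5.19 ± 0.17 (SE, edgeR adjusted p = 2.14e-10) and -5.19 ± 0.20 (edgeR adjusted p = 5.4e-10). Both genes lie with Gabra3 in a cluster of 586.6 kb on chromosome X (72255999 to 72842602, GRCm38). Gabra3 was also lower in hippocampus, at 85.8 to 152.1 against 175.7 to 231.8 CPM, but by far less (log2 difference -0.82 ± 0.08, edgeR adjusted p = 1.28e-06).

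The sequences before the start sites of the X cluster are shown because its 3 genes differed unequally between regions, and that of Gabra5 because it is the GABA-A gene most raised in hippocampus. Each is the 250 bases before a RefSeq start site (GRCm38.p6, strand of the gene), and capitals mark 3 motifs searched on both strands. The GC box was searched as GGGCGG. The TATA box was searched as TATAAA. A cAMP response core was searched as TGACG, and marked bases of overlapping matches run together.

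Gabre, chrX:72274722-72274971, minus strand: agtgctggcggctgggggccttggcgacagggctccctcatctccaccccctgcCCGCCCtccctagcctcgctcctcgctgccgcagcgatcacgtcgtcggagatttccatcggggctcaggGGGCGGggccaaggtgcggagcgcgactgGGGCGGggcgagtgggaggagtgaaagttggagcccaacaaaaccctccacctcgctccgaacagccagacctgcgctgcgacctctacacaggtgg
Gabrq, chrX:72824928-72825177, plus strand: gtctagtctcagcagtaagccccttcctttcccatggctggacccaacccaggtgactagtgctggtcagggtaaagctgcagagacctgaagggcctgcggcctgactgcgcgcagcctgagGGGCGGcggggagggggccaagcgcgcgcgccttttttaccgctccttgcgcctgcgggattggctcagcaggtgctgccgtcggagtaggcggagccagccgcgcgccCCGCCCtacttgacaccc
Gabra3, chrX:72656808-72657057, minus strand: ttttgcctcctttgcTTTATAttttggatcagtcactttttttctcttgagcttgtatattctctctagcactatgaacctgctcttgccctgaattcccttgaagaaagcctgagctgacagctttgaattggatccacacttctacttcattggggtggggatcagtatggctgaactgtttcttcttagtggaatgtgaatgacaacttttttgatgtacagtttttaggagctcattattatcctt
Gabra5, chr7:57510060-57510309, minus strand: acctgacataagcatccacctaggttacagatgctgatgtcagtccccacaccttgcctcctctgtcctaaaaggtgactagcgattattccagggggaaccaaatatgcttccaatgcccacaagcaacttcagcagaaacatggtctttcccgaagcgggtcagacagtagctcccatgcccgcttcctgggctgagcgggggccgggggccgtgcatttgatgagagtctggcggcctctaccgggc

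The Gabre and Gabrq windows were 68.8% and 67.2% G or C with 21 and 19 CpG, against a median of 52.4% and 6 CpG over 32851 RefSeq promoter windows of the same length. The Gabra3 window was 39.2% G or C with 0 CpG; RefSeq lists 2 promoters for Gabra3, and the one shown has the start site nearest to that of the count table. The RefSeq starts of Gabre and Gabra3 lie 82 and 41 bases inside the gene as the count table draws it. GGGCGG occurred 3 times for Gabre, 2 times for Gabrq and 0 times for Gabra3 and Gabra5. It was in 32.7% of all windows and in at least 1 window of 17 of the 33 members that the RefSeq table holds. TATAAA was in 12.4% of all windows and in those of 3 members, Gabra3, Gabrb2 and Grin3b, and TGACG in 17.8% and in those of 4, Gabrr1, Grin1, Grin1os and Grm8. CACGTG (E-box), which was not marked, was in 6.02% of all windows and in that of Grin1. A match describes letters in these windows and not a bound site.

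Neighbours on a chromosome did not move together between the regions. On chromosome 7 Gabrg3 was lower in hippocampus (19.4 to 30.4 against 34.5 to 55.2 CPM, log2 difference -0.89 ± 0.07, edgeR adjusted p = 3.289e-07) while Gabra5 was higher (1.42 ± 0.09, edgeR adjusted p = 6.929e-08). Gabra5 ranged from 107.3 to 208.0 CPM in hippocampus and from 44.5 to 70.9 CPM in hypothalamus, without overlap. On chromosome 5 (70751047 to 72149037) Gabrg1, a gamma gene known from amygdala, hypothalamus and glia, was at 27.9 to 44.9 against 89.8 to 123.5 CPM (-1.56 ± 0.07, edgeR adjusted p = 3.719e-09). Its neighbours Gabra4 (0.12 ± 0.13) and Gabrb1 (-0.17 ± 0.08) did not pass (edgeR adjusted p = 0.464 and 0.0938). Gabrb2, on chromosome 11, did not pass either (-0.01 ± 0.07).

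Among glutamate receptor genes Grin2a differed most. It ranged from 140.9 to 270.6 CPM in hippocampus (median 208.1) and from 28.8 to 66.4 CPM in hypothalamus (median 40.6), with no overlap and a log2 difference of 2.34 ± 0.12 (edgeR adjusted p = 9.429e-09). Grin2b ranged from 322.8 to 610.9 CPM against 137.1 to 333.8 (1.33 ± 0.09), and its ranges met through WT ND mouse 1, the highest hypothalamic library. Gria3 ranged from 124.7 to 217.9 against 64.1 to 107.4 CPM (1.14 ± 0.07), without overlap. Gria1 (0.76 ± 0.06) and Grik5 (0.76 ± 0.08), a high-affinity kainate subunit, did not overlap either, at 510.3 to 855.2 against 367.8 to 494.5 CPM and 130.4 to 238.2 against 100.2 to 120.3 CPM. Gria2 (0.91 ± 0.08, 349.1 to 690.6 against 211.9 to 382.9 CPM) and Grm5 (0.77 ± 0.09, 139.6 to 285.6 against 102.5 to 144.3 CPM), a postsynaptic group I receptor, overlapped at the edges and were higher in 12 of 12 mice. In the other direction Grin2d was at 10.9 to 22.4 CPM in hippocampus and 31.1 to 38.98 in hypothalamus (-1.18 ± 0.08). Grin3a (-0.86 ± 0.08), which lowers calcium entry through NMDA receptors, was at 39.3 to 64.3 and 72.6 to 120.8 CPM, and neither gene overlapped. For these genes edgeR adjusted p was at most 1.266e-05.

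**Figure D2:**
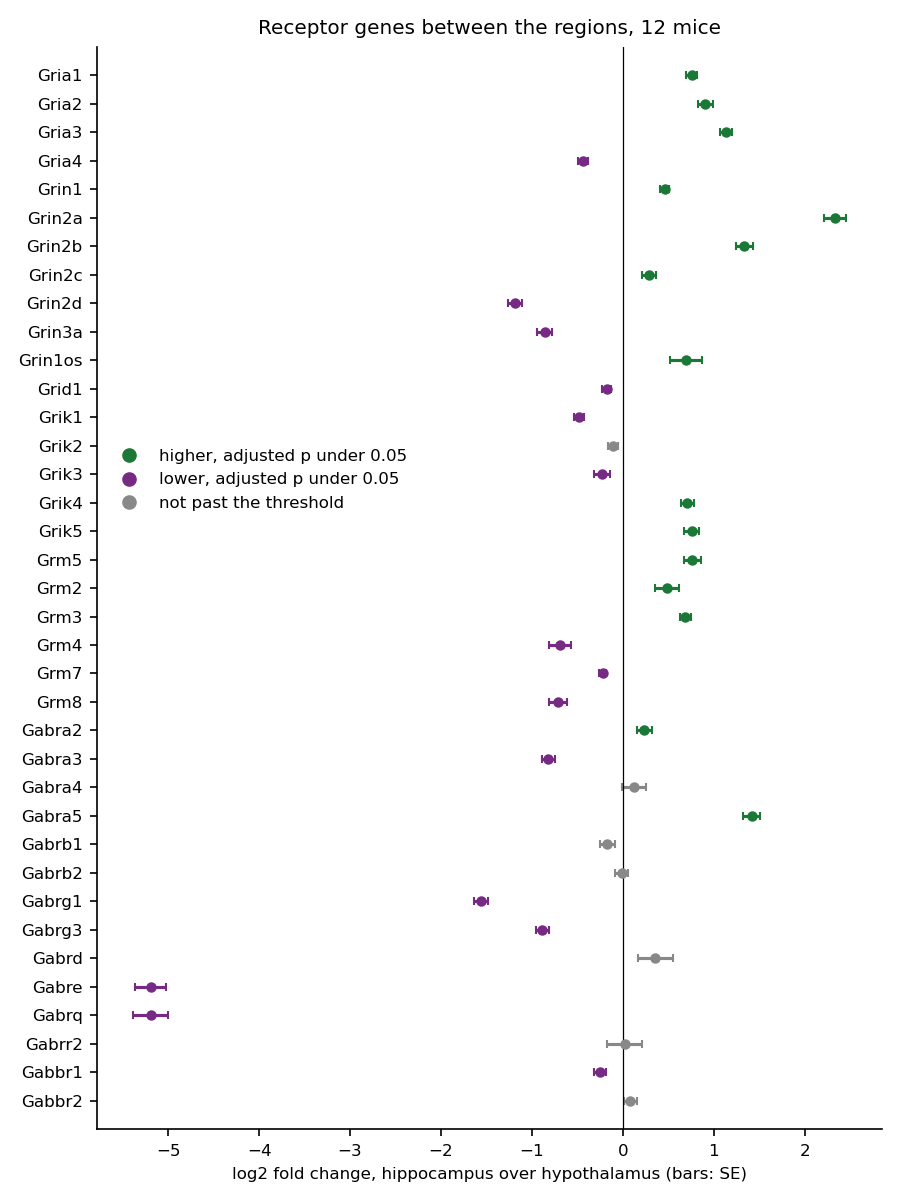
Log2 difference between hippocampus and hypothalamus (x axis) for members tested, ordered by family, with the SE as bars; green and purple points passed the threshold of 0.05 and grey ones did not. Gabre and Gabrq stand apart at -5.19, and Grin2a is highest at 2.34.

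The other genes of the 2 systems were counted in the same fit over both regions. The counts stand beside 56.6% of all tested genes called, 30% higher and 26.7% lower in hippocampus, and no list was tested as a set. Of 40 tested genes for auxiliary and scaffold proteins of glutamate receptors, 26 were higher and 10 lower in hippocampus. Their median log2 difference was 0.75, beside 0.01 over all genes. Those with the smallest p were Nptx1 (2.30 ± 0.07), which gathers AMPA receptors, the scaffold gene Homer3 (2.17 ± 0.08), the postsynaptic kinase gene Camk2a (2.36 ± 0.09) and Arc (2.85 ± 0.14), an activity-induced gene that removes AMPA receptors. Of 13 genes for glutamate release and uptake 6 were higher and 6 lower, and the vesicular transporters differed in opposite directions, Slc17a7 by 4.11 ± 0.22 and Slc17a6 by -1.96 ± 0.26. Of 13 for GABA synthesis and transport 2 were higher and 8 lower, median -0.26, and the glutamate decarboxylases split, Gad1 at 0.42 ± 0.08 and Gad2 at -0.84 ± 0.10, with the vesicular transporter Slc32a1 at -0.50 ± 0.09. Of 25 for GABA receptor partners 11 were higher and 6 lower, median 0.13, with Hap1 (-1.98 ± 0.09), which carries GABA-A receptors, first by p. Each gene named here passed at an edgeR adjusted p of at most 0.0004158.

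The uneven thalamic markers of the hippocampal libraries went with several members. The summed level of the 9 thalamic markers ran from 203.5 to 1409 CPM. It was highest in WT ND mice 1 and 2 (1296 and 1409), WT HFD mouse 1 (1264), ob/ob ND mouse 2 (1294) and ob/ob HFD mouse 3 (1175). Gabrd was at 55.2 to 85.5 CPM in these 5 libraries and at 22.7 to 43.3 CPM in the other 7. Gabra4, the usual partner of Gabrd in thalamus, was at 160.4 to 234.8 CPM in the 5 and at 105.3 to 143.9 CPM in the 7. Prox1, from the list of hippocampal pyramidal and granule cell markers, was also higher in the 5, at 85.4 to 119.2 CPM against 53.9 to 66.8 CPM. The summed level of that list overlapped, at 434.8 to 784.1 and 563.3 to 805.2 CPM. The hypothalamic libraries varied too, with sums from 871.8 to 1717 CPM. Those with the lowest sums, WT HFD mouse 3 (871.8) and WT ND mouse 2 (916.2), had the lowest Gabrd (18.9 and 20.4 CPM) and Gabra4 (99.7 and 101.7 CPM). The one with the highest sum, ob/ob ND mouse 3, had the highest Gabrd (56.4 CPM) and Gabra4 (174.2 CPM). Which cells brought Gabrd and Gabra4 to the libraries of either region was not tested. The libraries were sorted here by their marker sum only to describe them, and no test was made between them.

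**Figure D3:**
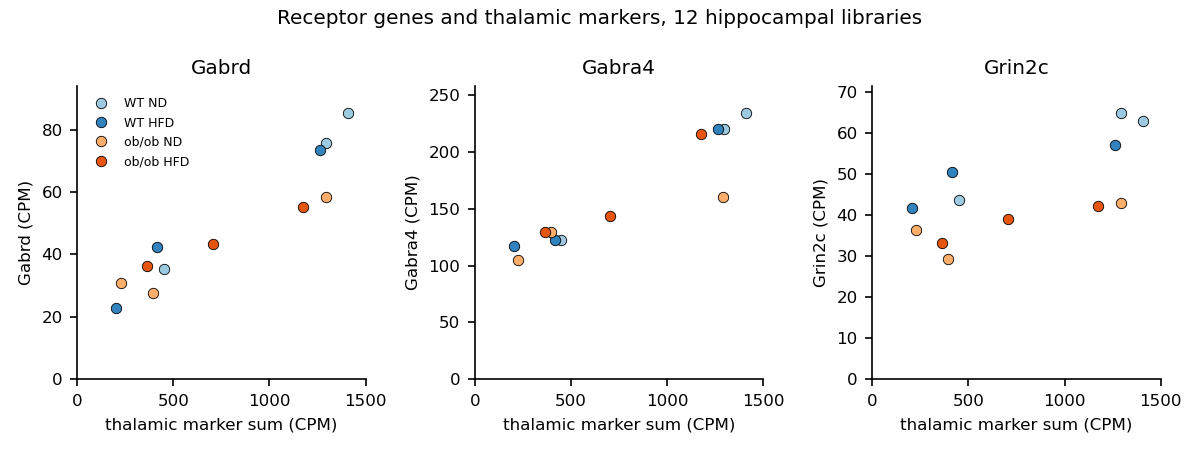
CPM of Gabrd, Gabra4 and Grin2c (y axes) against the summed CPM of 9 thalamic markers (x axis) in the 12 hippocampal libraries, coloured by group; each point is a library. Gabrd and Gabra4 are high in the 5 libraries with a sum of at least 1175 CPM, whatever their group, while Grin2c is lower in ob/ob than in WT libraries of like sum.

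When the log2 marker sum was added to the fit over both regions, 33 members passed, beside 40.9% of all genes. Gabbr1, Grm2 and Grin1os lost their difference between regions, and Gabra2, at 0.24 ± 0.09 without the term, changed sign to -0.04 ± 0.08 (edgeR adjusted p = 0.701). Gabrd (0.99 ± 0.16), Gabra4 (0.55 ± 0.12), Gabrr2 (0.58 ± 0.18) and Gabrb2 (0.20 ± 0.07) passed only with the term, at an edgeR adjusted p from 0.0002387 to 0.04196. Gabre, Gabrq, Grin2a, Gabra5 and Grin2d kept their calls, with log2 differences of -4.95, -5.14, 2.27, 1.15 and -0.95. This fit was chosen after the data had been seen. The sum ran from 203.5 to 1409 CPM in hippocampus and from 871.8 to 1717 CPM in hypothalamus. The term thus overlapped in part with region, and a call gained or lost with it cannot be placed on either.

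Genotype moved a small share of the members. In hippocampus 6 of 41 tested members passed between 6 ob/ob and 6 WT mice of both diets, 1 higher and 5 lower in ob/ob, beside 13.9% of all genes called, 6.42% higher and 7.46% lower. In hypothalamus 8 of 42 passed, 3 higher and 5 lower, beside 15.5% of all genes, 7.15% higher and 8.36% lower. The median log2 change of the members was -0.04 in hippocampus and -0.03 in hypothalamus, and that of all genes 0.0061 and -0.0046. Both shares lie near those of all genes, so the counts say nothing particular of the receptor genes, and single genes are described below.

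Gabra2, the alpha subunit of synaptic receptors targeted by anxiolytic benzodiazepines, rose in ob/ob mice in both regions. In hippocampus it was at 51.8, 41.5 and 60.4 CPM in WT on ND and 37.7, 48.3 and 69.5 in WT on HFD, against 159.2, 80.9 and 133.8 in ob/ob on ND and 129.6, 157.9 and 140.7 in ob/ob on HFD. Every ob/ob library was above every WT library, and the lowest ob/ob value belonged to ob/ob ND mouse 2. The log2 change was 1.37 ± 0.18 (SE, 2.59-fold, edgeR adjusted p = 0.001641).

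In hypothalamus Gabra2 was at 57.8, 46.7 and 45.5 CPM in WT on ND and 34.4, 38.6 and 45.5 in WT on HFD, against 117.6, 120.5 and 109.0 in ob/ob on ND and 90.1, 108.1 and 102.4 in ob/ob on HFD. The genotypes did not overlap on either diet. The log2 change was 1.28 ± 0.08 (2.43-fold, edgeR adjusted p = 2.272e-06), and by p Gabra2 ranked 4 of 16537 genes. Its share of the alpha FPKM was 3.97% ± 0.740 in WT and 9.38% ± 1.37 in ob/ob hippocampus, and 3.78% ± 0.837 and 8.44% ± 0.654 in hypothalamus (SD, n = 6 each).

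On each diet alone, with 3 mice a group, few members passed. On ND they were 3 of 41 in hippocampus (Grm3, Gabra2 and Grm7), beside 3.48% of all genes, and 2 of 42 in hypothalamus (Gabra2 and Grm3), beside 5.30%. On HFD they were 2 of 41 in hippocampus (Grm3 and Gabra2), beside 1.56%, and 3 of 42 in hypothalamus (Gabra2, Grm3 and Gabrr2), beside 2.13%. Gabra2 differed by 1.29 on ND and 1.46 on HFD in hippocampus and by 1.21 and 1.35 in hypothalamus. Its hypothalamic calls on a single diet held without any 1 library, while those in hippocampus were lost without any of 5 libraries on ND (WT ND mice 1, 2 and 3 and ob/ob ND mice 1 and 3) and any of 6 on HFD (WT ND mouse 1, WT HFD mice 1 and 2 and ob/ob HFD mice 1, 2 and 3). The calls of Grm3 on ND were lost in hippocampus without WT ND mouse 2 or ob/ob ND mouse 3 (edgeR adjusted p of up to 0.0682), and in hypothalamus without any of 8 libraries, all 6 of ob/ob mice, WT ND mouse 2 and WT HFD mouse 3 (up to 0.133). Those of Grm3 on HFD were lost without any of 5 libraries in each region, the 3 of ob/ob HFD with WT HFD mice 1 and 2 in hippocampus and WT HFD mice 2 and 3 in hypothalamus (edgeR adjusted p of up to 0.114 and 0.118). Grm7 on ND was lost without any library of WT ND or ob/ob ND or WT HFD mouse 2 (edgeR adjusted p of up to 0.119), and Gabrr2 on HFD without any library of WT HFD or ob/ob HFD (up to 0.139).

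The gene lies at 70957597 to 71095849 on the minus strand of chromosome 5, in the cluster with Gabrg1, Gabra4 and Gabrb1. Its neighbours did not share the rise. Gabrg1 differed by 0.17 ± 0.12 in hippocampus and -0.15 ± 0.08 in hypothalamus, and Gabra4 by -0.23 ± 0.22 and 0.08 ± 0.14, none past the threshold (edgeR adjusted p from 0.180 to 0.746). Gabrb1 fell in hippocampus by 0.34 on the log2 scale. Gabra4 and Gabrb1 start head to head and share 196 bases on opposite strands, and unstranded counting cannot place reads there. The window before the Gabra2 start is shown because Gabra2 had the largest log2 change of the members called between genotypes. It holds 1 GGGCGG and 18 CpG.

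Gabra2, chr5:71095850-71096099, minus strand: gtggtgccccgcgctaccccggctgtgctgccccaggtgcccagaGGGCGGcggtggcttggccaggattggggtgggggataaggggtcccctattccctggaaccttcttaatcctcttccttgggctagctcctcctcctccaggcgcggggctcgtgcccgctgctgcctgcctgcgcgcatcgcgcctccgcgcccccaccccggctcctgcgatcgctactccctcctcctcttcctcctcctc

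The labels do not say whether ob/ob and WT mice shared a strain background. Gabra2 is known to be expressed at a low level in C57BL/6J mice, which carry a small intronic deletion in it, and Nnt, a mitochondrial transhydrogenase gene, is known to carry a deletion of several exons in that substrain. Nnt, looked up after its values had been seen, was at 15.9 to 20.5 CPM in WT and 28.3 to 34.3 CPM in ob/ob hippocampus (log2 change 0.73 ± 0.08, edgeR adjusted p = 0.0007052). In hypothalamus it was at 14.01 to 18.8 and 25.1 to 27.04 CPM (0.74 ± 0.08, edgeR adjusted p = 0.0001201). A lack of leptin and a difference in strain background cannot be told apart in these samples, for Gabra2 or for any other gene below.

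Grm3, a group II receptor of astrocytes and nerve endings that lowers cAMP, fell in ob/ob mice in both regions. In hippocampus it was at 59.1, 67.4 and 70.7 CPM in WT on ND, 71.9, 65.7 and 55.9 in WT on HFD, 43.1, 34.96 and 41.2 in ob/ob on ND and 42.3, 43.2 and 38.4 in ob/ob on HFD. In hypothalamus it was at 32.7 to 40.8 CPM in the 6 WT libraries (median 38.6) and 24.3 to 30.2 CPM in the 6 ob/ob libraries (median 26.8). In both regions every ob/ob library was below every WT library. The log2 change was -0.68 ± 0.08 in hippocampus (edgeR adjusted p = 0.0009685) and -0.46 ± 0.07 in hypothalamus (edgeR adjusted p = 0.001635). Grm2, the other group II gene, differed by -0.06 ± 0.17 and 0.17 ± 0.14 and did not pass (edgeR adjusted p = 0.842 and 0.474).

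Gria4, also known from precursors of oligodendrocytes, was the other member that fell in both regions. It was at 96.5 to 124.9 CPM in WT and 75.3 to 93.0 in ob/ob hippocampus, and at 131.4 to 161.2 and 107.9 to 128.5 in hypothalamus. The genotypes did not overlap in either region. The log2 changes were -0.30 ± 0.07 and -0.25 ± 0.07 (edgeR adjusted p = 0.02203 and 0.02222). The hippocampal call was lost without WT ND mouse 2, ob/ob ND mouse 3 or ob/ob HFD mouse 1, at an edgeR adjusted p of up to 0.0545. The hypothalamic one was lost without WT HFD mouse 2, ob/ob ND mouse 3, or ob/ob HFD mouse 1 or 3, at up to 0.0616. The other 3 AMPA genes did not pass in either region.

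Grm7, Grin2c and Gabrb1 passed in hippocampus and not in hypothalamus, and the test of the difference between regions passed for none of them by edgeR. Grm7, a presynaptic group III receptor, was at 46.9 to 56.7 CPM in WT and 36.3 to 43.4 in ob/ob, with no overlap (log2 change -0.31 ± 0.06, edgeR adjusted p = 0.007595). In hypothalamus it was at 49.4 to 65.1 and 44.3 to 54.9 CPM and did not pass (-0.16 ± 0.07, edgeR adjusted p = 0.146). Grin2c, an NMDA subunit of astrocytes, thalamus and cerebellum, was at 41.7 to 64.9 CPM in WT and 29.2 to 42.99 in ob/ob hippocampus, with 1 range reaching into the other (-0.52 ± 0.13, edgeR adjusted p = 0.02431). Gabrb1, a beta subunit, was at 154.5 to 203.3 and 112.3 to 164.0 CPM (-0.34 ± 0.09, edgeR adjusted p = 0.02571), and in hypothalamus its change was -0.40 ± 0.14 (edgeR adjusted p = 0.07187). The call of Gabrb1 was lost without WT ND mouse 1 or 3, WT HFD mouse 2 or ob/ob HFD mouse 1, at an edgeR adjusted p of up to 0.0636. That of Grin2c was lost without any of 7 libraries (mice 1 and 2 of WT ND, WT HFD and ob/ob HFD, and ob/ob ND mouse 3), at up to 0.0655.

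In hypothalamus Gabrr2, a rho subunit known from retina, rose from 1.65 to 2.68 CPM in WT to 2.95 to 4.81 CPM in ob/ob, without overlap (log2 change 0.86 ± 0.15, edgeR adjusted p = 0.003232). In hippocampus its values were 1.15 to 4.13 and 0.811 to 6.89 CPM and overlapped (0.67 ± 0.43, edgeR adjusted p = 0.331).

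Among the other hypothalamic calls were Grin3a (-0.30 ± 0.08, edgeR adjusted p = 0.02797), Grm8, a presynaptic group III receptor (-0.29 ± 0.08, edgeR adjusted p = 0.03513), and Gabrq (-0.40 ± 0.13, edgeR adjusted p = 0.04772). Grm8 was at 17.8 to 21.4 CPM in WT and 12.02 to 17.3 in ob/ob, without overlap, while the ranges of Grin3a (81.7 to 120.8 and 72.6 to 84.8) and Gabrq (69.9 to 104.4 and 44.99 to 75.3) overlapped. Each call was lost without any of 7 libraries, at an edgeR adjusted p of up to 0.0714, 0.0818 and 0.113. For all 3 these included WT HFD mice 2 and 3, ob/ob ND mice 1 and 3 and ob/ob HFD mouse 1. To these came ob/ob ND mouse 2 and ob/ob HFD mouse 3 for Grin3a, WT HFD mouse 1 and ob/ob ND mouse 2 for Grm8, and WT ND mouse 2 and ob/ob HFD mouse 2 for Gabrq. Grm8 (27275119 to 28135178 on chromosome 6) lies 0.925 Mb from Lep, and a lack of leptin and alleles carried along with the ob mutation cannot be told apart there.

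**Figure D4:**
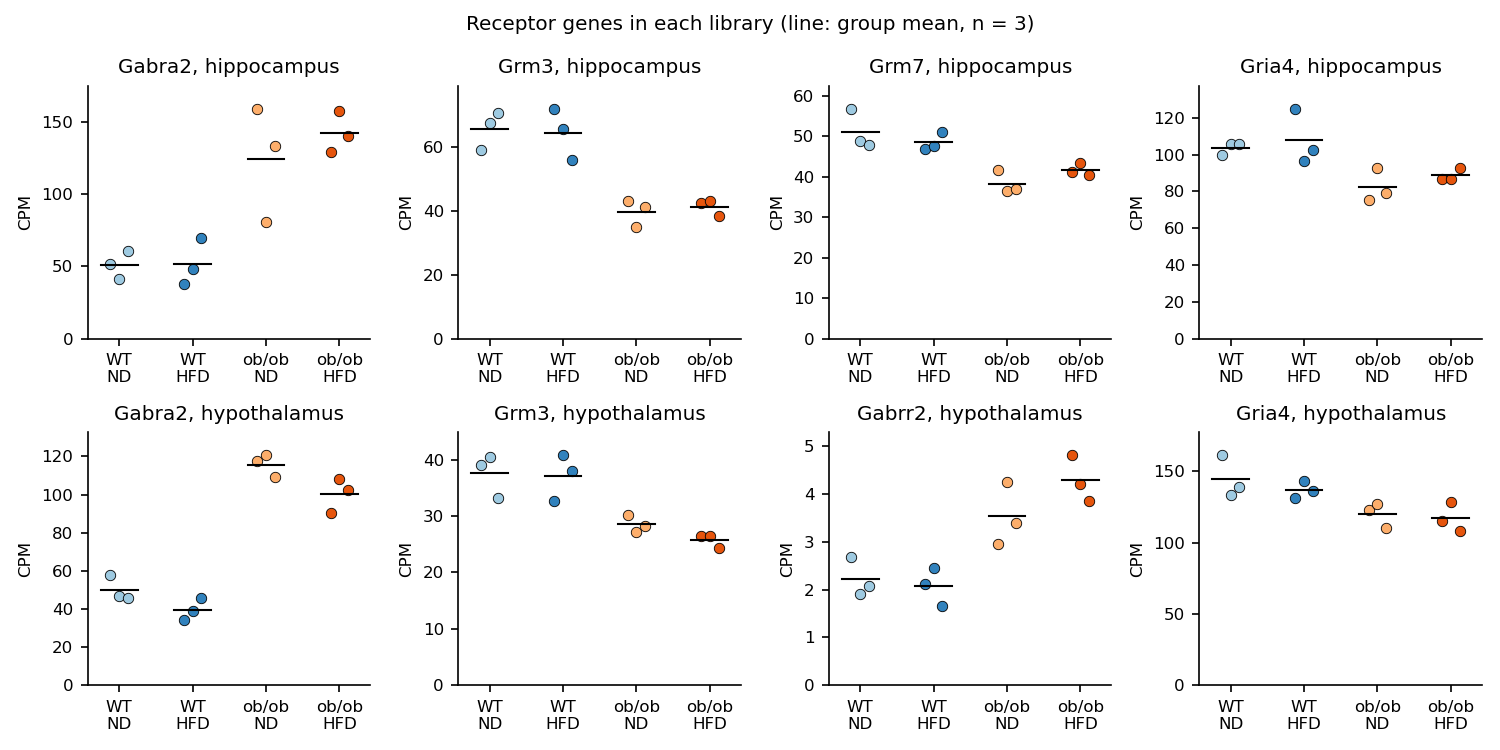
CPM (y axis) of members called between genotypes, in each library by group; points are mice and lines the mean of 3. Gabra2 is higher and Grm3 lower in every ob/ob library than in every WT library of both regions, and Gabrr2 rises in hypothalamus from at most 2.68 to at least 2.95 CPM.

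**Figure D5:**
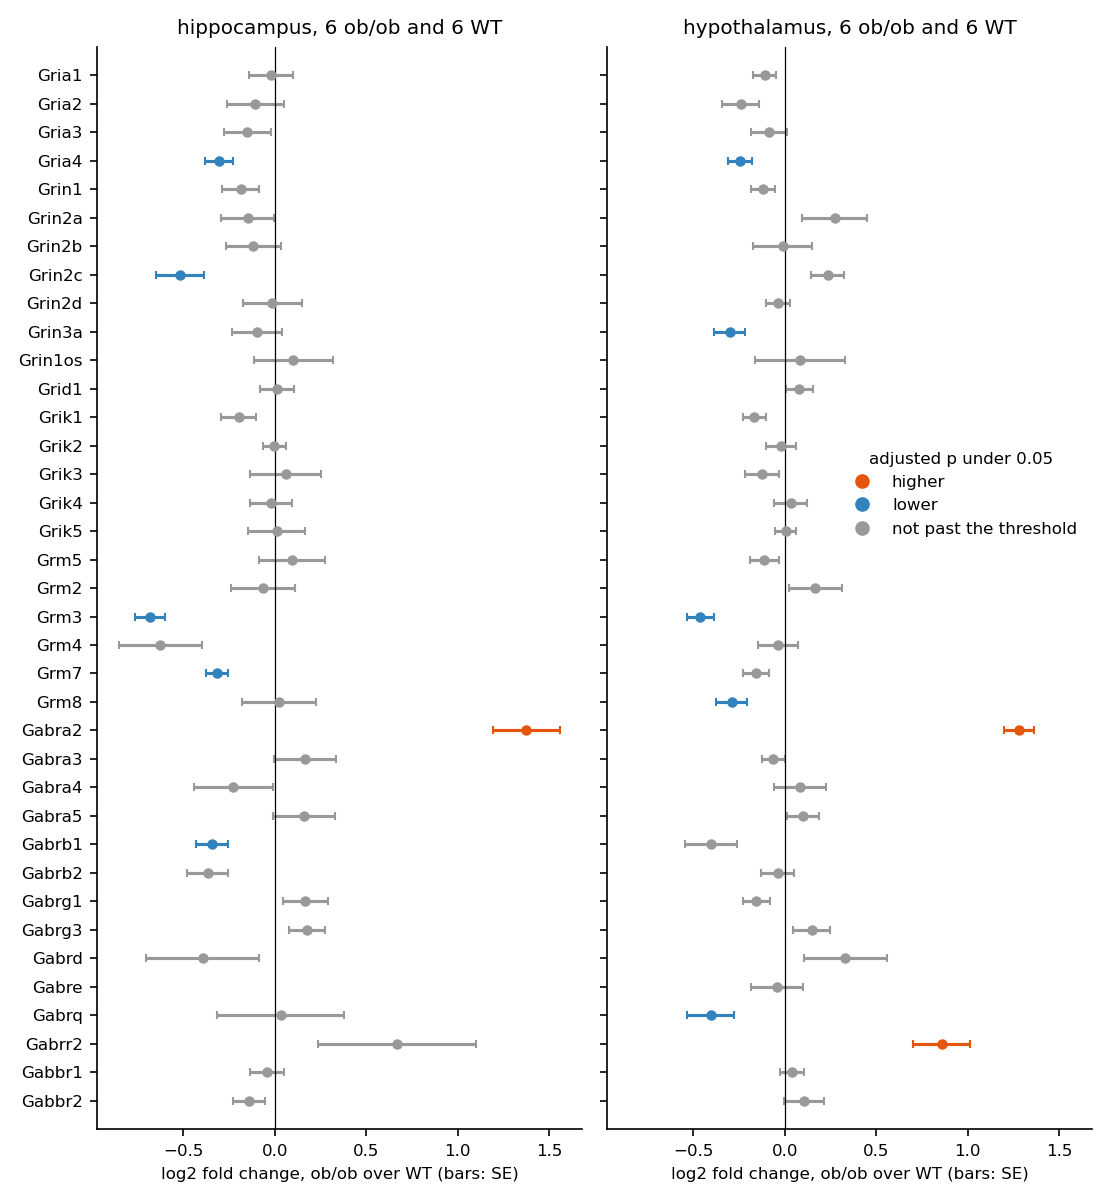
Log2 change between ob/ob and WT mice (x axis, SE as bars) of tested members in hippocampus (left) and hypothalamus (right), ordered by family; orange and blue points passed the threshold of 0.05, grey ones did not, and a gene with no point was not tested. Gabra2 stands apart at 1.37 and 1.28.

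With the thalamic marker sum as a term, a choice made after the data had been seen, 12 members passed in hippocampus, beside 27.1% of all genes. The 6 of the fit without it were among them, with Gabra2 at 1.31 ± 0.08 and Grm3 at -0.69 ± 0.08. Among the other 6 were Grm4 (-0.54 ± 0.09), Gabrb2 (-0.33 ± 0.06), Gabrr2 (0.81 ± 0.22) and Grin1 (-0.22 ± 0.07), with edgeR adjusted p from 0.0009718 to 0.0313. In hypothalamus 8 members passed with the term, beside 9.46% of all genes. Gabra2, Grm3, Gabrr2, Gria4 and Grin3a, among others, had also passed without it. Gabra5 (0.26 ± 0.07) and Grm4 (-0.26 ± 0.07) passed only with it. Gabrq (-0.19 ± 0.11 with the term) and Grm8 (-0.25 ± 0.10) passed only without it. The hypothalamic sum was itself higher in most ob/ob libraries, at 1126 to 1717 CPM against 871.8 to 1635 CPM in WT. The term thus overlapped in part with genotype there, and a hypothalamic call gained or lost with it cannot be placed on either.

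Markers of glia and some of neurons moved with genotype beside these genes, in fits where 7.46% of all genes were lower in ob/ob hippocampus and 8.36% in hypothalamus. Of 8 neuron markers Nefl (-0.32 ± 0.08) and Eno2 (-0.19 ± 0.06) fell in hippocampus, and the summed level ran from 6611 to 8175 CPM in WT and 5957 to 7579 in ob/ob libraries. In hypothalamus 0 passed by edgeR, with 3 at an unadjusted p under 0.05, and the sums were 5445 to 6297 and 5191 to 6127 CPM. Of 5 markers of oligodendrocyte precursors 3 fell in each region, Gpr17 (-0.86 ± 0.10 in hippocampus, -0.98 ± 0.11 in hypothalamus), Olig2 and Olig1, and the summed level ran from 233.7 to 341.1 CPM in WT and 189.3 to 229.4 in ob/ob hippocampus. In hypothalamus the precursor sum ran from 267.8 to 311.0 and 200.8 to 240.4 CPM. Of 8 microglial markers 6 fell in hippocampus and 5 in hypothalamus, with sums of 310.0 to 353.9 and 248.6 to 292.7 CPM in hippocampus and 237.7 to 258.8 and 191.4 to 208.7 in hypothalamus. Of 8 astrocyte markers Sox9 rose and Aqp4 fell in both regions, and Gfap fell in hippocampus. Of 8 oligodendrocyte markers 7 fell in hypothalamus and 0 in hippocampus by edgeR, where 1 had an unadjusted p under 0.05. No defining marker of these types was at 0, and the part of these cells in the changes of Grm3, Gria4 and the other members was not tested.

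Other genes of glutamate and GABA transmission were compared between genotypes beside 13.9% of all genes called in hippocampus and 15.5% in hypothalamus. Of 13 genes for GABA synthesis and transport 0 passed by edgeR in either region, with 0 and 1 at an unadjusted p under 0.05. Gad1 stood at -0.18 ± 0.11 in hippocampus and -0.19 ± 0.09 in hypothalamus, Gad2 at -0.13 ± 0.12 and -0.19 ± 0.11, and Slc32a1 at -0.24 ± 0.12 and -0.26 ± 0.12. Of 13 for glutamate release and uptake, Gls2, a glutaminase, fell in hippocampus (-0.44 ± 0.11, edgeR adjusted p = 0.02385) and 0 passed in hypothalamus, where 2 had an unadjusted p under 0.05. Of 39 glutamate receptor partners Shisa9, an AMPA receptor auxiliary gene, fell in hippocampus (-0.53 ± 0.06, edgeR adjusted p = 0.001017) and hypothalamus (-0.31 ± 0.07, edgeR adjusted p = 0.006911). Cacng2, which carries AMPA receptors to the synapse, fell in hippocampus (-0.32 ± 0.09, edgeR adjusted p = 0.03496). In hypothalamus 2 rose, the scaffold genes Dlgap1 (0.34 ± 0.07) and Dlgap3 (0.45 ± 0.10), and 4 fell, among them Dlg1 (-0.24 ± 0.06). Of 25 GABA receptor partners 0 passed in hippocampus, with 4 at an unadjusted p under 0.05, and Plcl1 fell in hypothalamus (-0.50 ± 0.11, edgeR adjusted p = 0.01008).

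Diet left no call among the members. HFD against ND gave 0 of 41 members in hippocampus and 0 of 42 in hypothalamus at an edgeR adjusted p under 0.05, in WT and in ob/ob mice alike, beside 0% of all genes. At an unadjusted p under 0.05 there were 0 members in hippocampus in either genotype, beside 2% of all genes in WT and 2.81% in ob/ob mice. In WT hypothalamus there was 1, Gabra2 (-0.34 ± 0.12), beside 4.05% of all genes, and in ob/ob hypothalamus 2, Grm7 (-0.25 ± 0.10) and Gabre (-0.48 ± 0.20), beside 3.31%. DESeq2 also called 0 members for diet. The test of whether the genotype change differed between diets called 0 members in either region, with 1 at an unadjusted p under 0.05 in each, Gabrb2 in hippocampus, beside 2.25% of all genes, and Gabre in hypothalamus, beside 3.64%.

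Whether the genotype change differed between the regions was tested within mice, as paired by their labels. By edgeR 0 of 42 members passed, beside 0% of all genes, with 5 at an unadjusted p under 0.05, beside 5.87%. Of these 5, Grin2c had the smallest p: it fell by 0.52 in hippocampus and stood at 0.23 ± 0.09 in hypothalamus, a difference of -0.74 ± 0.15 (edgeR adjusted p = 0.632). DESeq2 called Grin2c and none of the other members (adjusted p = 0.0471). Gabra2, Grm3 and Gria4, called in both regions, showed no difference past the threshold.

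Few members were expressed outside the brain. A median of at least 1 FPKM was reached by 2 members in aorta (Gabra3 and Grik5), 4 in epididymal fat (Gabra3, Gabrr2, Gabbr1 and Grid1), 4 in heart (among them Gabra3, Gabrr2 and Gabbr1), 1 in liver (Gabbr2) and 2 in skeletal muscle (Gabrr2 and Gabbr1), 12 libraries each. Gabbr2 reached 24.1 CPM in liver, without Gabbr1 at a like level, which was at 0.371 to 2.63 CPM there. Of the members changed in both brain regions, Gabra2 and Grm3 had at most 0.683 CPM in any library of these 5 tissues, and Gria4 at most 1.77 CPM.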

How the data were processed

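RNA of 7 tissues from 12 mice was sequenced on a NextSeq after TruSeq preparation, per the labels' protocols. The deposited table holds raw counts per Ensembl gene for 84 libraries. Per the submitters' processing notes, Trimmomatic 0.36, HISAT2 2.0.5, featureCounts 1.5.0-p2 and GRCm38 were used. Whether counting used strand is not given in the sources used here; 14 members have exons that overlap a gene on the opposite strand and 6 a gene on the same strand. Of 49671 genes 49326 had a symbol.

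Here the counts were tested with edgeR 4.0.16 (R 4.3.3): filterByExpr (smallest count 10, smallest total 15), TMM, the quasi-likelihood test and Benjamini-Hochberg adjustment over all genes tested, at 0.05. Each region was fitted on its 12 libraries with 4 groups, genotype being the mean of both diets, and regions were compared in a fit of 24 libraries with mouse as a block. An SE is the log2 change divided by the root of F. CPM and FPKM were computed from the counts, FPKM with the exon length in the table; outside the brain they rest on library totals. The scripts were tested on simulated data. Replicate libraries of a group differed beyond counting noise, so none was counted as a duplicate.

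Named were all members called between genotypes or in an interaction, the 8 highest and 8 lowest differences among those called between regions, and the highest FPKM of each family, with other members by level or as cluster neighbours; the results of some members are not reported here. From each other list came up to 4 called genes with the smallest p, with Gad1, Gad2, Slc17a6, Slc17a7 and Slc32a1 in any case. Nnt and the genes with an unadjusted p alone were chosen after their values were seen. Members and lists were chosen with earlier results of these data known. Alternatives were DESeq2 1.42.0, its size factors, no filter, a replicate block, leaving out each mouse and, added after the data had been seen, the thalamic marker sum as a covariate. Replicate numbers did not pair the mice of different groups: mean correlations of same-numbered libraries' deviations within a region ran from -0.148 to 0.0585. Hippocampal and hypothalamic libraries of the same group and number were taken as the same mouse. The mean correlation of their deviations, 0.0496 (lowest -0.112), lay within that range. The deviations thus gave no sign that such libraries shared a mouse, and the mouse block rests on the labels alone. No sequencing batch is given in the labels.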

Additional observations from a re-analysis of the deposited data

Results flagged for a closer look

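In tissues that the comparisons do not use, 40 pairs of a member and a tissue had a median of at least 1 CPM in either genotype. In 4 of them every ob/ob library lay above every WT library, which is why they are listed here; the differences were not tested. In 2 others, among them Grid1 in liver, every ob/ob library lay below. The share of all genes that separated in this way was not counted, so these counts say nothing particular of the receptor genes. Gabrr2 had an ob/ob median of 1.94 CPM in aorta, 3.73 CPM in heart and 5.32 CPM in skeletal muscle. Its ranges in WT and ob/ob were 0.0808 to 0.433 and 1.30 to 2.37 CPM in aorta, 1.77 to 2.59 and 3.33 to 5.36 CPM in heart, and 1.07 to 2.72 and 3.99 to 17.6 CPM in skeletal muscle. Gabra3 had an ob/ob median of 6.87 CPM in skeletal muscle, with 1.003 to 2.94 CPM in WT and 3.39 to 17.9 CPM in ob/ob libraries.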

How the results depend on the processing

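Of 986 alternatives to 58 single-gene results, 863 kept direction and call, 122 kept the direction with another call, and 1 reversed: Gabra2 between regions, at -0.042 with the thalamic covariate. Gabra2 and Grm3 in both regions, Grm7 in hippocampus and Gabrr2 in hypothalamus kept their genotype calls in every alternative run. Leaving out a mouse gave 3 to 8 members called for genotype in hippocampus (3 without ob/ob HFD mouse 1), and 3 to 13 in hypothalamus (13 without WT ND mouse 1, 3 without WT HFD mouse 2 or ob/ob HFD mouse 1). Over all genes the calls ran from 1407 to 2409 in hippocampus and from 1601 to 4511 in hypothalamus. Leaving out a mouse gave 0 to 5 members on ND and 0 to 2 on HFD in hippocampus, 1 to 6 and 1 to 7 in hypothalamus, and 32 to 35 between regions. The calls over all genes were 19 to 578 and 2 to 229 in hippocampus, 162 to 2306 and 29 to 1518 in hypothalamus, and 9010 to 9950 between regions. The covariate gave 12 in hippocampus, 12 there on ND, 5 there on HFD, and 1 in hypothalamus on HFD. With a replicate block 5 members passed in hippocampus and 6 in hypothalamus, and on single diets 1 on ND and 0 on HFD in hippocampus and 1 on ND in hypothalamus; the numbers do not pair the mice. Without the filter on low counts 5 passed on ND and 7 on HFD in hypothalamus, and 1, Grin2b, for diet in WT hypothalamus. DESeq2 gave 6 on ND in hippocampus and 1, Grin2c, for genotype by region. For the covariate on single diets, the replicate block, the fit without a filter and DESeq2, the share of all genes called is not given here. Those counts therefore say nothing particular of the receptor genes. The causes were not tested. With 3 mice a group and 12098380 to 15535110 counts a library, the smallest change that could be detected was not measured.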
